A study of Mus musculus with 125 samples.

Results

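The regions described here are stretches of open chromatin called in endothelial nuclei of the mouse retina in the first postnatal week and in that of none of 5 other organs. Peaks of the 14 P6 endothelial lists were merged where they overlapped, which gave 196834 regions. A region was kept if at least 2 of the 3 P6 retina endothelial libraries had a peak in it, if none of the 11 P6 endothelial libraries of brain, heart, kidney, liver and lung had one, and if none of the 3 P6 retina input libraries had one. Input here means nuclei of the whole tissue. The rule kept 1908 regions. They were selected on measured P6 peaks, so their presence and strength at P6 are a description.

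The study made ATAC-seq libraries, in which a transposase cuts accessible DNA, from nuclei of 66 preparations of mouse tissue, each labelled endothelial or input. All groups carried a GFP reporter in their vessels that was switched on with tamoxifen at 0.015 mg/kg. E12 embryos (brain, heart and trunk) were treated at E10.5 and collected at E12.5. Postnatal pups, labelled P6, were treated at P1 and P3, and their protocol text places collection at P7. Adults were treated 7 days before collection. The retina was sampled at P6 (3 endothelial and 3 input libraries) and in adults (2 and 2), and not at E12. The labels used here name no Cre driver, mouse strain, sex or pooling of animals, so the tests below measure the spread between libraries only. The share of each cell type in a library was not measured, and fewer cells of a type and less open chromatin per cell cannot be told apart.

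Blood vessels of the mouse retina grow after birth, spreading from the optic nerve head over a bed of astrocytes and then sprouting into the deeper layers. Norrin, made by Müller glia, acts on the endothelial receptor Fzd4 with Lrp5 and Tspan12 and drives beta-catenin signalling, which is needed for the deep vessels and for the blood-retina barrier. Most tissue-specific accessible regions are enhancers away from gene starts, where transcription factors such as those of the ETS family bind in endothelium. Rods and bipolar cells, which make up much of the retina, are still being born in the first postnatal week.

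Of the 1908 regions, 19 reached into one of the promoter windows for which sequence was at hand (RefSeq, build GRCm38.p6, 250 bases before to 50 after a gene start). Those of 5 genes are shown, chosen after their values were seen, because they cover the patterns described below. Each run is the part of the promoter window that the region covered, written 5′ to 3′ on the gene's strand, and capitals mark GGAA or its reverse complement TTCC, the core that ETS factors recognise.
Filip1, chr9:80012869-80013101, minus strand: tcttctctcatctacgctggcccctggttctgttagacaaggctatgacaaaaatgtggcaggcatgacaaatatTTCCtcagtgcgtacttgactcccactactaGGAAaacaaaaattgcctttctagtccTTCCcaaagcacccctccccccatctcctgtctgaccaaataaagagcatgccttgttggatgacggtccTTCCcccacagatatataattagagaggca
Cyp4f39, chr17:32452542-32452772, plus strand: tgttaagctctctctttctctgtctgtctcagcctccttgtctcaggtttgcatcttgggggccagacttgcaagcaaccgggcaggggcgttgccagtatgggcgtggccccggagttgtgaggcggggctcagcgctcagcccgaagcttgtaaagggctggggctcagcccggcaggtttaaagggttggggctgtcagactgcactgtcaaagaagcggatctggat
Gm41300, chr15:36931719-36931768, minus strand: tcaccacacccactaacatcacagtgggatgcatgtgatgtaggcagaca
Cd300lb, chr11:114934322-114934568, minus strand: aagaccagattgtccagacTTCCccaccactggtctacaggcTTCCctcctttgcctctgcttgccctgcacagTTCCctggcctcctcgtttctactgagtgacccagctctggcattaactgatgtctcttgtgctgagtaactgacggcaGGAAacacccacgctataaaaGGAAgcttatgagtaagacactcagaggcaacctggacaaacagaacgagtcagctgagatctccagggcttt
Gm4311, chr19:43641958-43642121, minus strand: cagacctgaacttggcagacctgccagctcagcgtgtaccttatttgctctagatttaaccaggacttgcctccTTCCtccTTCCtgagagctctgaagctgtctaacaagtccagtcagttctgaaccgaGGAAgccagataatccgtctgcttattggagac

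The run at Filip1, which encodes a filamin A-interacting protein, has 4 GGAA cores and lies upstream of the start. The run at Cd300lb, a myeloid immune receptor gene, has 5 and holds the start itself. Those at Cyp4f39, a cytochrome P450 gene, and at the lncRNA Gm41300 have 0. At the lncRNA Gm4311 the run has 3 such cores and 1 match to TAATCC, the letters recognised by the photoreceptor factors CRX and OTX. Motifs were searched on both strands, and matches may overlap. Over 32817 whole promoter windows, 96.0% held GGAA and 7.06% held TAATCC on either strand, so a match in a window is a common event for the first motif. All 19 whole windows that a region reached into held GGAA. The runs are parts of windows, so their counts cannot be set against these shares. Filip1, Cyp4f39 and Gm41300 had peaks at E12 in at least 2 brain endothelial libraries, Gm4311 had an adult retina peak, and Cd300lb had neither.

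One library stood apart from the others of its label. The list labelled P6 retina input 2 shared 0.653 and 0.555 of its covered bases (intersection over union) with P6 brain inputs 2 and 3, and only 0.363 and 0.351 with P6 retina inputs 1 and 3, which shared 0.624 with each other. A further 19243 regions were absent from the endothelium of other organs but had a P6 retina input peak. The library labelled P6 retina input 2 had a peak at 20.3% of those, against 93.9% for input 1 and 87.8% for input 3. Without it the rule kept 2054 regions, against 3826 without P6 retina input 1, 2799 without input 3, and 1019, 1226 and 929 without P6 retina endothelial 1, 2 and 3, when both of the others had to have a peak. In adults, the list labelled retina input 1 was closest to adult retina endothelial 2 and 1 (0.560 and 0.528) and shared 0.359 with retina input 2. The labelled cell type was checked on marker genes, taking the strongest peak in or within 1 kb of each gene body. All 18 general endothelial markers had a peak in each P6 retina endothelial library, with median best folds of 5.74, 5.57 and 5.29, against 15, 17 and 15 of 18 and 4.204, 4.39 and 4.45 in inputs 1 to 3. Of 10 photoreceptor markers, 9 had a peak in each of the P6 endothelial libraries (4.24, 4.18 and 3.89) and in inputs 1 and 3 (4.26 and 4.30), and 4 in the library labelled input 2. So the photoreceptor medians of the endothelial lists lay close to those of whole retina. All 6 astrocyte markers had a peak in each P6 endothelial library, with medians of 5.77, 5.56 and 5.68, close to or above those of the endothelial markers. Amacrine and horizontal cell markers had peaks at 10, 9 and 10 of 10 genes (5.12, 4.71 and 5.12), ganglion cell markers at 8, 7 and 8 of 8 (5.12, 4.57 and 4.55), Müller glia and progenitor markers at 10 of 10 in each (4.63, 4.10 and 4.21), and bipolar cell markers at 8, 7 and 8 of 8 (4.59, 4.42 and 4.53). Pericyte and smooth muscle markers had peaks at 11, 11 and 12 of 12 genes (4.30, 3.79 and 4.45). In inputs 1 to 3 they had peaks at 8, 12 and 10 genes (3.81, 4.37 and 3.78). So the endothelial lists also held peaks at markers of the other cells of the retina, and the part of such cells in the results was not tested. In adults, photoreceptor markers had peaks at 8 and 9 of 10 genes in endothelial 1 and 2, and endothelial markers at 18 and 16 of 18, against 4 and 13 of 18 in inputs 1 and 2. The 3 P6 retina endothelial lists shared 0.654 to 0.671 with each other, and held 14.02 to 18.9 M (mega) tags and 84241 to 92863 peaks, against 19.1 to 34.4 M tags and 27160 to 87133 peaks in the P6 endothelium of other organs.

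The retina-only regions were a small share of what was open in P6 retina endothelium. Of 85204 regions with a peak in at least 2 of its libraries, 21151 had none in the endothelium of other organs, and 9.02% of these, the 1908 regions, lacked a retina input peak. That share moves with the libraries used, since the count ran from 929 to 3826 with 1 of them left out. P6 retina endothelial 1 had a peak at 1522 regions, endothelial 2 at 1308 and endothelial 3 at 1608. All 3 had one at 622 regions (32.6%), endothelial 1 and 3 alone at 600 (31.4%), endothelial 2 and 3 alone at 386 (20.2%), and endothelial 1 and 2 alone at 300 (15.7%). Just outside the rule lay 5050 regions with a peak in 1 library.

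Peaks in these regions were weak and short. The deposited fold, which is a peak's pileup of tags divided by the background around it, had a median of 3.56 in P6 retina endothelial 1, 3.40 in endothelial 2 and 3.44 in endothelial 3, and a maximum of 7.22, 7.24 and 7.30. The regions with a retina input peak had medians of 4.29, 4.10 and 4.15, and the 64053 regions shared with another organ's endothelium 4.73, 4.53 and 4.57. The same order held in each of the 3 libraries, with overlapping quartiles. Mean folds had a median of 3.18 just outside the rule (1 library), 3.38 for 2 libraries and 3.64 for 3. Median width was 323 bp (10th to 90th percentile 243 to 504), against 395 bp and 719 bp in the other sets. Median −log10 q was 2.86, 2.79 and 2.98. Across the 622 regions with a peak in all 3 libraries, Pearson's r of the log2 fold was 0.48 to 0.59 between libraries. This is across regions chosen for having those peaks, and regions are not replicates.

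**Figure D1:**
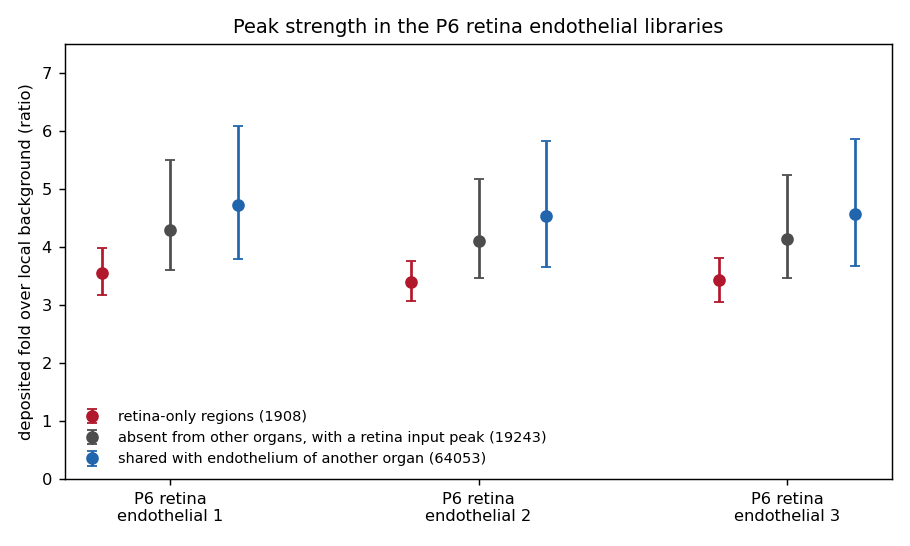
Deposited fold (a ratio) of peaks in each P6 retina endothelial library for the 1908 retina-only regions and the 2 comparison sets. Points are medians over regions with a peak in that library and bars are the quartiles. The retina-only regions sit lowest in each library, with medians of 3.40 to 3.56.

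Most retina-only regions lay far from gene starts. The body of a protein-coding gene held 1147 (60.1%), and 761 (39.9%) lay between genes. This is near the 62.5% in gene bodies of the 85204 regions and the 59.1% of those with a retina input peak. Start positions were at hand for 79.9% of protein-coding genes, so starts were read only for the 1494 regions whose nearest gene had one. Of these, 23 (1.54%) lay within 1 kb of a start, against 3.31% of the regions with a retina input peak and 17.6% of all regions open in at least 2 P6 retina endothelial libraries. The median distance to the nearest start was 38.0 kb (quartiles 14.2 and 96.7), against 38.6 and 24.4 kb. The first 2 medians were close, and the whole set lay nearer to starts. Peaks of other lists lay at a median distance of 3.29 kb for the P6 endothelium of other organs and 3.45 kb for retina input. In all, 152 regions (7.97%) lay within 500 bp of another organ's P6 endothelial peak and 151 (7.91%) within 500 bp of a retina input peak.

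The strongest regions, by mean fold among those with a peak in all 3 libraries, differed in where else they were open. Folds are relative to each library's own background and were not scaled between libraries, so values at 2 ages are set side by side as a description. The first lay 17.0 kb from Fam110c (chr12:31056343-31056939), with folds of 7.22, 6.15 and 7.30 in P6 retina endothelial 1 to 3. It had E12 peaks in all 3 brain endothelial libraries (6.68, 5.66 and 7.06) and in 3 trunk libraries, and none in adult retina. A region in the body of Mlip, which encodes a lamin-interacting protein (chr9:77171937-77172442), had folds of 6.15, 5.12 and 7.20 at P6 and 7.82, 8.58 and 8.88 in E12 brain endothelium. The region in Marchf1, a ubiquitin ligase gene (chr8:66157245-66157649), was alike, with 6.73, 5.80 and 4.88 at P6 and 7.64, 8.66 and 9.32 at E12. At both of these the E12 brain values lay above all 3 retina values. Both were also open outside the brain at E12, Mlip in 3 heart and 4 trunk endothelial libraries and Marchf1 in 2 and 4.

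A region between genes lay 765 kb from Slit2, which encodes a guidance ligand (chr5:47215349-47215802). Its folds were 5.19, 5.54 and 4.93 at P6 and 6.07, 5.88 and 6.99 in E12 brain endothelium. It also had peaks in 2 E12 heart and 4 E12 trunk endothelial libraries. The region in Rgs6, a regulator of G protein signalling (chr12:82657666-82658336), had 5.12, 5.03 and 5.34 at P6. Its E12 brain values of 5.49, 5.32 and 4.00 overlapped those at P6, and no E12 heart or trunk endothelial library had a peak there. A region near Pmaip1, which encodes the pro-apoptotic protein Noxa, had 4.99, 5.43 and 6.12 at P6. Folds in 2 E12 brain libraries were lower (3.42 and 3.34), and no E12 heart or trunk endothelial library had a peak there. So 6 of the 10 strongest had peaks in at least 2 E12 brain endothelial libraries and none in adult retina, against 22.3% of all retina-only regions. Over all of them, at least 2 E12 brain libraries had a peak at 24.5% of the 636 regions with the highest mean fold, 27.4% of the middle 636 and 23.3% of the lowest 636.

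Of the other 4, 3 were open in adult retina. A region 6.21 kb from Adipor1, an adiponectin receptor gene (chr1:134439562-134439992), had folds of 6.47, 6.39 and 6.72 at P6 and 6.71 and 6.18 in adult retina endothelium, and a peak in both adult retina inputs. The region near Ybx3, a Y-box protein gene (chr6:131408351-131408651), had 5.09, 5.45 and 4.94 at P6 and 5.17 and 7.62 in adult retina endothelium, again with both inputs. The region in Tbc1d4, a regulator of glucose transporter traffic (chr14:101469355-101469793), had 4.90, 7.24 and 6.09 at P6. It had a peak in 1 adult retina input and in no adult retina endothelial library, and also in the E12 trunk input. The region 131 kb from Stac (chr9:111822018-111822457), with 5.17, 5.26 and 6.36, was in neither set.

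The question put first was whether the regions still had a peak in adult retina endothelium. Few did. The adult retina endothelial lists held 43149 and 45276 peaks, against 84241 to 92863 in the P6 lists. So a region without an adult peak may still be open below the threshold, and the part of list length was not tested. Adult retina endothelial 1 had a peak at 13.99% of them and endothelial 2 at 20.1% (17.0 ± 4.30%, SD, n = 2). The 10 adult endothelial libraries of the other organs had a peak at 0 to 0.472% (0.194 ± 0.138%, SD). The groups did not overlap, and the difference was 16.8 percentage points (exact two-sided permutation test over libraries, p = 0.0303, the smallest that 66 assignments allow, and 0.0758 after Benjamini-Hochberg adjustment over 5 tests, which misses 0.05). The rule had already removed regions open in those organs at P6, so part of this direction was fixed by the choice. With either adult retina library left out, the difference was 13.8 or 19.9 points. With 1 retina library left, no p below 0.05 was possible. The groups did not overlap either over the 85204 regions with a peak in at least 2 P6 retina endothelial libraries. There, adult retina endothelium had peaks at 45.5 and 46.0%, against 19.2 to 38.0% in the other organs. With each library's share over all other P6 regions subtracted, the difference for the retina-only regions was 12.3 points (exact permutation p = 0.0303). Over those other regions, adult retina endothelium had peaks at 21.0 and 21.3%, above its shares of the retina-only regions. The other organs had 9.46 to 22.5% there. The subtraction does not remove what the rule had fixed in the other organs, so this p-value cannot decide the question.

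At least 1 adult retina endothelial library had a peak at 433 regions (22.7%), against a background of 52.9% of the 85204 regions open in at least 2 P6 retina endothelial libraries. Both had one at 217 (11.4%, background 38.6%). The share was below the background in both counts. Of the 433, 401 also had a peak in an adult retina input library and 32 did not, and of the 217 only 1 had none. That is 92.6% of the 433 and 99.5% of the 217 with an adult input peak. The same shares over the 85204 regions were 86.5% and 92.7%, and over the regions with a P6 retina input peak 99.2% and 99.98%, so those of the retina-only regions lay between. Ranked by mean fold, the top 636 regions had an adult retina endothelial peak in 30.5% of cases, the middle 636 in 17.8% and the lowest 636 in 19.8%.

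Whole-retina nuclei of adults were also open at some of the regions. At least 1 adult retina input library had a peak at 705 regions (36.9%), against a background of 63.7%. Input 1, a list of 32560 peaks, had a peak at 13.8% of the regions. Input 2, a list of 82301 peaks, had one at 36.6%, so the inputs lay on either side of the endothelial libraries. The endothelial mean less the input mean was -8.18 points (exact permutation p = 1, with 0.333 the smallest that 6 assignments allow). Without adult retina input 2 it was 3.20 points, so the direction rested on 1 library. Adult inputs of the other organs had peaks at 0.524 to 5.77% of the regions, against 15.9 to 51.3% of the 85204 regions.

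The same rule was applied to the other organs for comparison, with each organ's own P6 inputs. Retina and brain had 3 P6 endothelial libraries each, and heart, kidney, liver and lung had 2. So a peak in at least 2 libraries meant 2 of 3 in retina and brain and all libraries in the others. It kept 2278 regions for brain, 3205 for heart, 681 for kidney, 2531 for liver and 1411 for lung. Their own adult endothelium retained 22.9 to 26.2% of the brain regions, 12.7 to 16.9% of those of heart, 17.0 to 28.9% of the kidney, 44.2 to 55.8% of the liver and 1.56 to 7.37% of the lung regions, so the retina's 13.99 to 20.1% lay inside the range of the other organs. Their own adult inputs had peaks at 0.354 to 7.59% of their regions, below the 13.8% and 36.6% of the retina. This last difference was not tested.

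Brain endothelium was called closed at all of the regions at P6, by the rule, but not at E12. E12 brain endothelial 1 to 3 had peaks at 24.3, 26.6 and 26.0% (25.6 ± 1.23%, SD, n = 3). E12 heart endothelial 1 to 4 had 12.2, 11.2, 0.577 and 13.4%, and E12 trunk endothelial 1 to 4 had 12.3, 8.75, 14.7 and 20.2%. All 3 brain libraries lay above all 8 others, by 13.98 points in the mean (exact two-sided permutation test, p = 0.0121, the smallest the design allows, 0.0606 after adjustment over 5 tests, which misses 0.05). Heart endothelial E12 3 was the shallowest library (10.1 M tags, 39096 peaks), and without it the difference was 12.4 points (exact permutation p = 0.0167). The same order held over the 85204 regions with a peak in at least 2 P6 retina endothelial libraries. There, E12 brain endothelial libraries had peaks at 67.1 to 68.2%, against 30.7 to 65.7% in heart and trunk. With each library's share over all other P6 regions subtracted, the difference for the retina-only regions was 6.72 points (exact permutation p = 0.0606). The names of the aligned files have endings that differ between organs (some organs share one) at E12, in adults and at P6, where the regions were chosen, while the peak caller's settings were the same. Some endings also differed within an organ. P6 brain endothelial 1 and 2 carried the ending of the P6 retina libraries and P6 brain endothelial 3 did not. Adult retina inputs 1 and 2 differed as well. Whether reads were processed differently is not given in the sources used here. In E12 and in adult endothelium any such part and that of organ cannot be told apart, and elsewhere it was not tested.

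At least 2 E12 brain endothelial libraries had a peak at 478 regions (25.1%), against a background of 67.8% of the 85204 regions, and all 3 at 391. With P6 retina input 1 left out of the rule the share was 14.8% (565 of 3826 regions). The share was below that background, most of which is regions shared among organs. Of the 478, 395 also had a peak in E12 heart or trunk endothelium and 83 did not, and 94 had one in the E12 brain input. A like share was seen in the other organs: under the same rule, E12 brain endothelial libraries had peaks at 13.7 to 29.1% of the P6 regions of brain, heart, kidney, liver or lung alone. The retina's 24.3 to 26.6% lay inside that range.

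Few of the regions were open in adult brain endothelium or in P6 whole brain. Adult brain endothelial 1 and 2 had a peak at 0.157 and 0.472%, against 33.8 and 38.0% of the 85204 regions, and the 8 adult endothelial libraries of heart, kidney, liver and lung at 0 to 0.367%. The difference of 0.15 points was within their spread (exact permutation p = 0.311). P6 brain inputs 1 to 3 had peaks at 7.13, 2.096 and 1.05% of the regions, against 44.7, 55.6 and 48.0% of the 85204, and the 10 P6 inputs of heart, kidney, liver and lung at 1.62 to 13.99%, against 26.2 to 57.9% of the 85204, a difference of −4.43 points (exact permutation p = 0.154). The library labelled P6 retina input 2, closest to brain inputs, had helped to choose the regions. With regions chosen without it the difference was −1.76 points. P6 lung inputs 1 to 3 had 13.99, 12.4 and 9.12%, and heart inputs 1 and 2 had 11.1 and 10.2%. Counted over all of these inputs, 644 of the 1908 regions (33.8%) had a peak in at least 1 P6 input library of another organ, so the regions were retina-only among endothelial lists and not among all P6 lists. Over the 85204 regions this share was at least 57.9%, that of P6 lung input 1 alone.

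**Figure D2:**
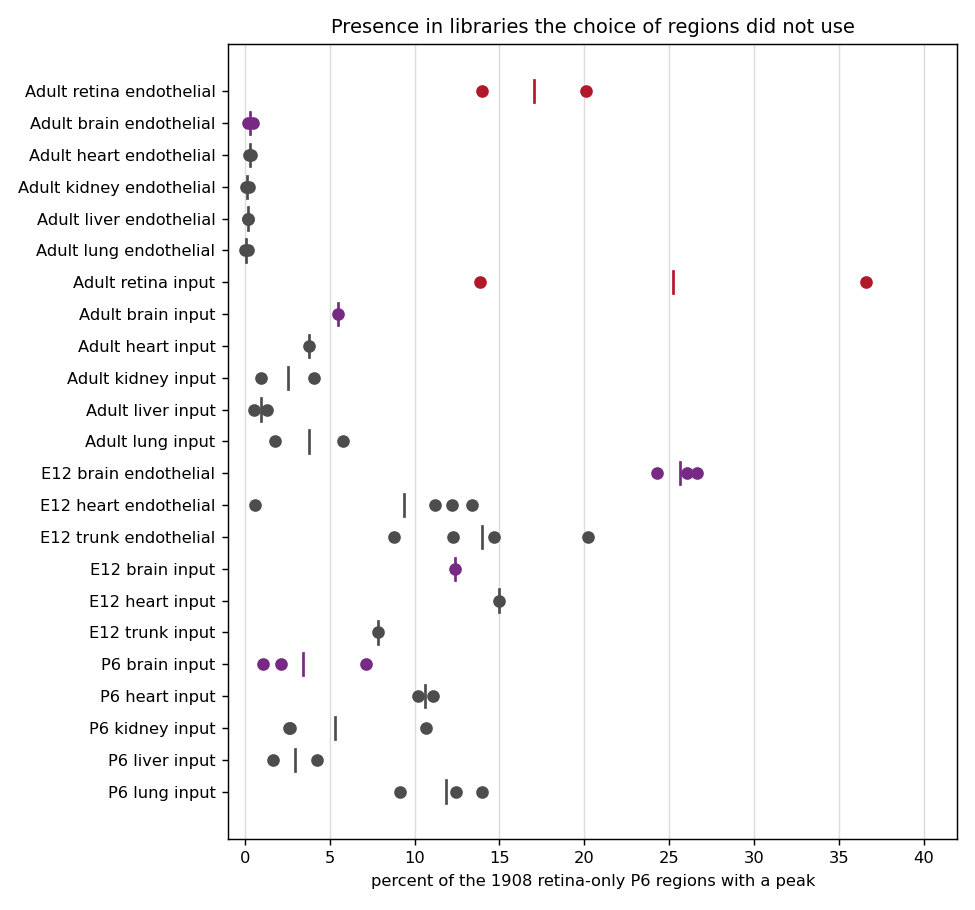
Percent of the 1908 retina-only P6 regions with an overlapping peak (x axis) in each library that the choice did not use, by group (y axis). Each point is a library and the vertical tick is the group mean. Adult endothelium of the other organs lies between 0 and 0.472%, adult retina endothelium at 13.99 and 20.1%, and E12 brain endothelium between 24.3 and 26.6%.

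Few regions were open both at E12 and in adult retina. Of the 478 regions open in at least 2 E12 brain endothelial libraries, 48 (10.0%) had an adult retina input peak and 21 had an adult retina endothelial peak. Of the other 1430 regions, 657 (45.9%) had an adult retina input peak. Of all 1908 regions, 685 had a peak in no E12 brain library and no adult retina input, 386 in no E12 brain library and 1 adult retina input, 363 in all 3 E12 brain libraries and no adult retina input, and 238 in no E12 brain library and both adult retina inputs. This is a description, since regions are not replicates.

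**Figure D3:**
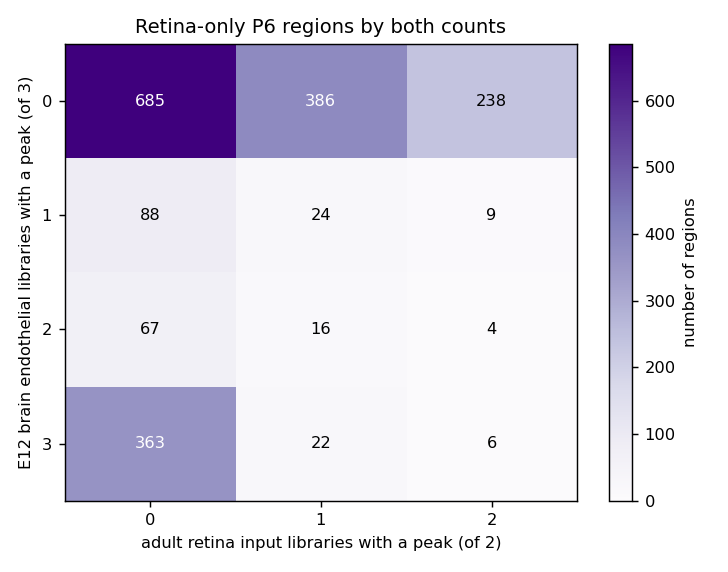
Number of retina-only P6 regions by how many of the 3 E12 brain endothelial libraries (y axis) and how many of the 2 adult retina input libraries (x axis) had a peak there. The largest count is 685 regions with no peak in either, followed by 386 with 0 and 1, 363 with 3 and 0, and 238 with 0 and 2, against 6 with 3 and 2.

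Regions were then divided by these outcomes, a division made after the values were seen. Open at E12 in at least 2 brain endothelial libraries and in no adult retina library were 426 regions (22.3%), in an adult retina library (endothelial or input) but not at E12 were 685 (35.9%), in both were 52 (2.73%), and in neither were 745 (39.0%). Among the 19243 regions with a P6 retina input peak the shares were 3.35, 69.2, 7.67 and 19.8%, and among the 85204 regions they were 20.3, 23.5, 47.4 and 8.78%. The 622 regions with a peak in all 3 libraries gave 26.2, 40.4, 2.89 and 30.5%, and the 1258 chosen from peaks with a −log10 q of at least 3 gave 26.2, 44.7, 5.41 and 23.7%. Of these 1258, 617 overlapped a retina-only region, while 382 had a P6 retina input peak and 315 a P6 endothelial peak of another organ in the full lists. Lists cut to an equal number of top peaks gave 666 regions, with shares of 5.26, 69.1, 22.5 and 3.15% and an adult retina endothelial peak at 84.8%. Of these 666, 2 overlapped a retina-only region and 645 had a P6 retina input peak in the full lists, so the membership itself depends on where peaks were thresholded.

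**Figure D4:**
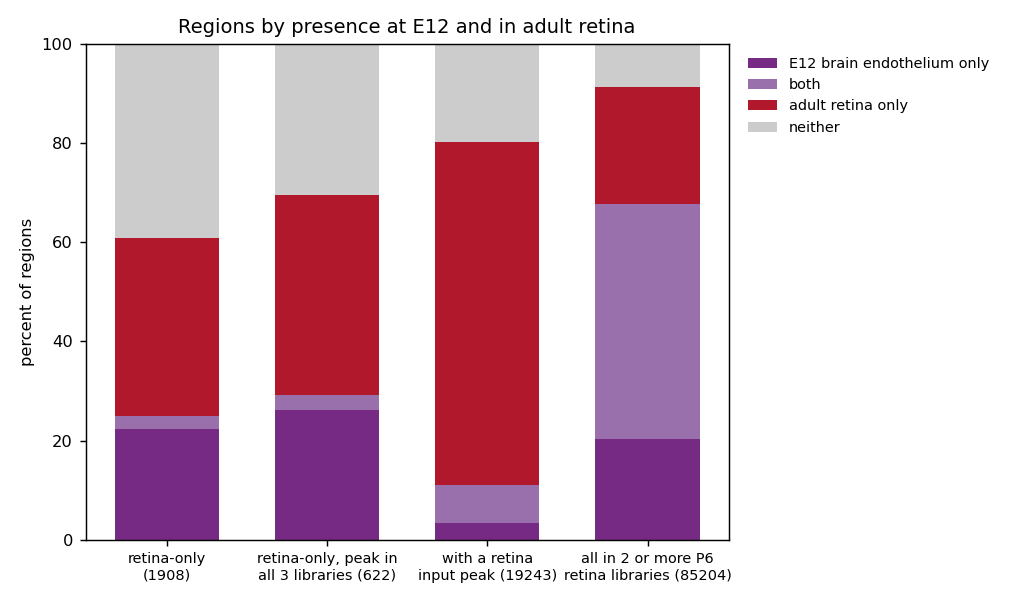
Share of regions (y axis, percent) open at E12 in brain endothelium only, in adult retina only, in both or in neither, for 4 sets of P6 retina regions (x axis, with their numbers). Regions with a retina input peak are mostly open in adult retina (69.2%), and retina-only regions are spread over E12 brain endothelium (22.3%), adult retina (35.9%) and neither (39.0%).

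The E12 and adult retina regions differed in position and in library. In gene bodies lay 50.5% of the 426 E12 regions and 70.5% of the 685 adult retina regions, with median distances to a start of 43.6 and 30.4 kb. Median widths were 358 and 302 bp. Median mean folds were 3.45 (quartiles 3.21 and 3.77) and 3.56 (3.24 and 3.90), which overlapped. P6 retina endothelial 1 had a peak at 90.8% of the E12 regions and 72.7% of the adult retina regions, and endothelial 2 at 65.5 and 76.2%. Of the E12 regions, 76.3% also had a peak in E12 trunk endothelium and 45.8% in E12 heart endothelium, against 1.8% and 3.6% of the adult retina regions. No peak outside P6 retina endothelium was called in any library at 313 of the 1908 regions (16.4%). Over the 85204 regions this share was at most 8.78%, that of regions open in neither set. The rule itself had removed regions with a peak in other P6 endothelium or in P6 retina input.

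The regions were spread over many genes. Their nearest protein-coding genes numbered 1585, which is 7.24% of the 21887 in the gene table, and none of them had more than 5 regions. Those with 5 were Auts2, Camta1, Eps8, Ntm and Wwox. Auts2, Camta1, Ntm and Wwox are 802 to 1106 kb long, and Eps8, which encodes an actin regulator, is 172 kb. Of the 5 regions each, those open in adult retina only numbered 4 at Ntm, a neural adhesion gene, 3 at Eps8, 2 at Camta1 and at Wwox, and 0 at Auts2. Auts2, Camta1 and Wwox had 1 region each that was open in E12 brain endothelium and not in adult retina, and the rest were open in neither.

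Genes of endothelium and of vessel signalling were the nearest gene of 29 regions. Of 140 genes on the 9 such lists, 24 (17.1%) had a region, against 7.24% of all protein-coding genes. Of 52 genes of retinal neurons and glia, 6 (11.5%) had one, with 10 regions, and of 46 genes of pericytes, pigment epithelium, microglia, red cells and lens, 6 (13.04%) had one, with 6 regions. Listed genes were not matched for length. Of the 29 endothelial regions, 15 were open at E12 in brain endothelium and not in adult retina, 2 the reverse, 2 in both and 10 in neither, against 22.3, 35.9, 2.73 and 39.0% of all retina-only regions. Of the 10 neuronal regions, 1 was open at E12 only, 6 in adult retina only and 3 in neither, against the same shares. Near the same endothelial genes, the regions with a P6 retina input peak numbered 152, of which 6 were open at E12 only and 101 in adult retina only.

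The Norrin and Wnt list had regions at 6 of its 22 genes (27.3%, against 7.24% of all protein-coding genes), 8 regions in all. None of them was open in adult retina. Of all retina-only regions, 35.9% were open in adult retina only and 2.73% there and at E12. Tspan12 encodes the tetraspanin that helps Fzd4 respond to Norrin. The region in its body (chr6:21799575-21799900) had folds of 3.35, 2.95 and 2.93 in P6 retina endothelial 1 to 3 and 3.25, 2.93 and 2.71 in E12 brain endothelium, so the ages overlapped, and no E12 heart or trunk endothelial library had a peak there. Lef1, the DNA-binding partner of beta-catenin, had 3. The one in its body at chr3:131159190-131159507 had 3.37, 4.13 and 3.86 at P6 and peaks in 2 E12 brain libraries (2.46 and 2.32), below all P6 values. The one at chr3:131147581-131147932 had 4.34, 3.11 and 3.20 at P6 and 3.15, 3.17 and 3.07 at E12. The third, 16.2 kb outside the gene, had no peak in retina endothelial 3. E12 trunk endothelium had a peak at the first of these in 1 library and at the third in 3. E12 heart endothelium had one at the third in 1 library, and neither had one at the second.

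Of the remaining Wnt genes, Znrf3, which encodes a ligase that removes Frizzled receptors, had a region in its body (chr11:5398459-5398806). Its folds were 3.39 and 2.96 in retina endothelial 2 and 3, and higher in E12 brain endothelium (5.17, 4.47 and 4.21). It also had peaks in 2 E12 trunk endothelial libraries. The regions nearest to Axin2, Tcf7l1 and Nkd1 had peaks in 2 retina libraries each and in no E12 brain or adult retina library. Ndp, Fzd4, Lrp5, Ctnnb1 and the rest of the list, 16 genes, were the nearest gene of none.

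Endothelial transcription factors had regions at 6 of 25 genes (24%, against 7.24% of all protein-coding genes), 7 in all. Of these, 4 were open at E12 only and 0 in adult retina. The shares of all retina-only regions were 22.3% at E12 only, 35.9% in adult retina only and 2.73% in both. Foxq1, a forkhead gene of brain endothelium, had 2 regions 161.95 and 164.6 kb away. The one at chr13:31393221-31393554 had 4.86, 4.03 and 3.50 at P6 and 4.83, 4.16 and 4.34 in E12 brain endothelium. It also had peaks in 3 E12 heart libraries and 1 E12 trunk endothelial library. The other had no peak in any other library. The region 10.6 kb from Foxo1 (chr3:52360731-52361674) had 3.51, 4.22 and 4.42 at P6 and 3.60, 3.37 and 3.87 in E12 brain endothelium, which overlap. It also had peaks in 1 E12 heart and 4 E12 trunk endothelial libraries. Ets1, Ets2 and Epas1, the last encoding a hypoxia-inducible factor, had 1 region each.

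The list of tip cell and sprouting genes holds genes of the leading cells of sprouts and genes that promote or restrain sprouting. It had regions at 3 of 25 genes (12%, against 7.24% of all protein-coding genes), Flt1, Adm and Lama4. Flt1, the decoy receptor for VEGF, which restrains the formation of tip cells and is also on the general endothelial list, had 3 of the 5 regions. The strongest lay 10.3 kb outside the gene (chr5:147736778-147737244) with 6.02, 3.40 and 4.98 at P6, a spread in which endothelial 1 was high, and no library outside P6 retina endothelium had a peak there. Those in its body had mean folds near 3, and had a peak in 2 and in 1 of the E12 brain endothelial libraries. The regions near Adm, the adrenomedullin gene, and Tjp1, which encodes the tight junction protein ZO-1, were the 2 endothelial regions open in adult retina only, and in each case the peak was in retina input and in no adult retina endothelial library.

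The remaining vessel lists had a region at 5.56% to 33.3% of their genes, against 7.24% of all protein-coding genes. Notch and arterial genes had 1 of 14 (Efnb2, 709 kb away, with 5.07 and 3.80 in P6 retina endothelial 1 and 3 and 4.204, 3.09 and 4.59 in E12 brain endothelium). Venous genes had 1 of 6 (Vwf, with 3.76, 2.92 and 3.22). Barrier genes had 2 of 21 (Tjp1 and the efflux transporter gene Abcb1a), and the TGF-beta and BMP list 2 of 13. Near the receptor gene Tgfbr2 (chr9:116192278-116192611), folds of 3.92, 3.73 and 2.98 at P6 lay below 5.05, 5.05 and 5.78 in E12 brain endothelium. E12 trunk endothelium had a peak there in 4 libraries. No E12 heart or trunk endothelial library had one at the Efnb2 and Vwf regions. The hypoxia and VEGF response list had 4 of 12 (33.3%, Hif1a, Epas1, Dusp5 and Adamts1), the highest share of the vessel lists. General endothelial markers such as Pecam1 and Cdh5 had 1 of 18.

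Photoreceptor genes had regions at 3 of 10 genes (30%, against 7.24% of all protein-coding genes), 4 in all. Each was open in adult retina endothelium and adult retina input and in no E12 brain endothelial library. Of all 1908 regions, 401 (21.0%) had both an adult retina endothelial and an adult retina input peak. The regions in Rcvrn, the recoverin gene, had 3.14, 2.25 and 3.47 and 2.26, 2.86 and 2.18 at P6. The one in Pde6b, a rod phosphodiesterase gene, had 2.90, 3.44 and 3.45. Most values at Rcvrn lay below the medians of the retina-only regions.

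Of 8 bipolar cell genes, 2 (25%, against 7.24% of all protein-coding genes) had a region, Prkca and Otx2, with 5 regions in all. Prkca, a protein kinase C gene, had 4 in its body, of which 3 were open neither at E12 in brain endothelium nor in adult retina. The strongest of these had folds of 3.64, 3.93 and 4.00 at P6 and no peak in any library outside P6 retina endothelium. At each of the rest of these 3, P6 lung inputs 1 to 3 and 1 P6 kidney input had a peak. The fourth region had a peak in 1 adult retina input. The region 27.0 kb from Otx2, a homeobox gene of photoreceptors and bipolar cells (chr14:48629410-48629753), had 2.81, 3.99 and 4.06 at P6 and 4.64 and 3.90 in adult retina endothelium. Amacrine and horizontal, Müller glia and progenitor, and astrocyte lists had 0 of 10, 0 of 10 and 0 of 6 genes, and ganglion cell genes 1 of 8 (Nefl). Pericyte and smooth muscle genes had 3 of 12 (25%, Pdgfrb, Cspg4 and Myh11). Microglia genes had 1 of 10 (Ptprc), pigment epithelium 1 of 10 (Mitf), lens 1 of 6 (Cryaa) and red cell genes 0 of 8. Photoreceptor genes as a group had peaks of like strength in P6 retina endothelial and whole-retina lists, as given above, and their part in these counts was not tested.

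**Figure D5:**
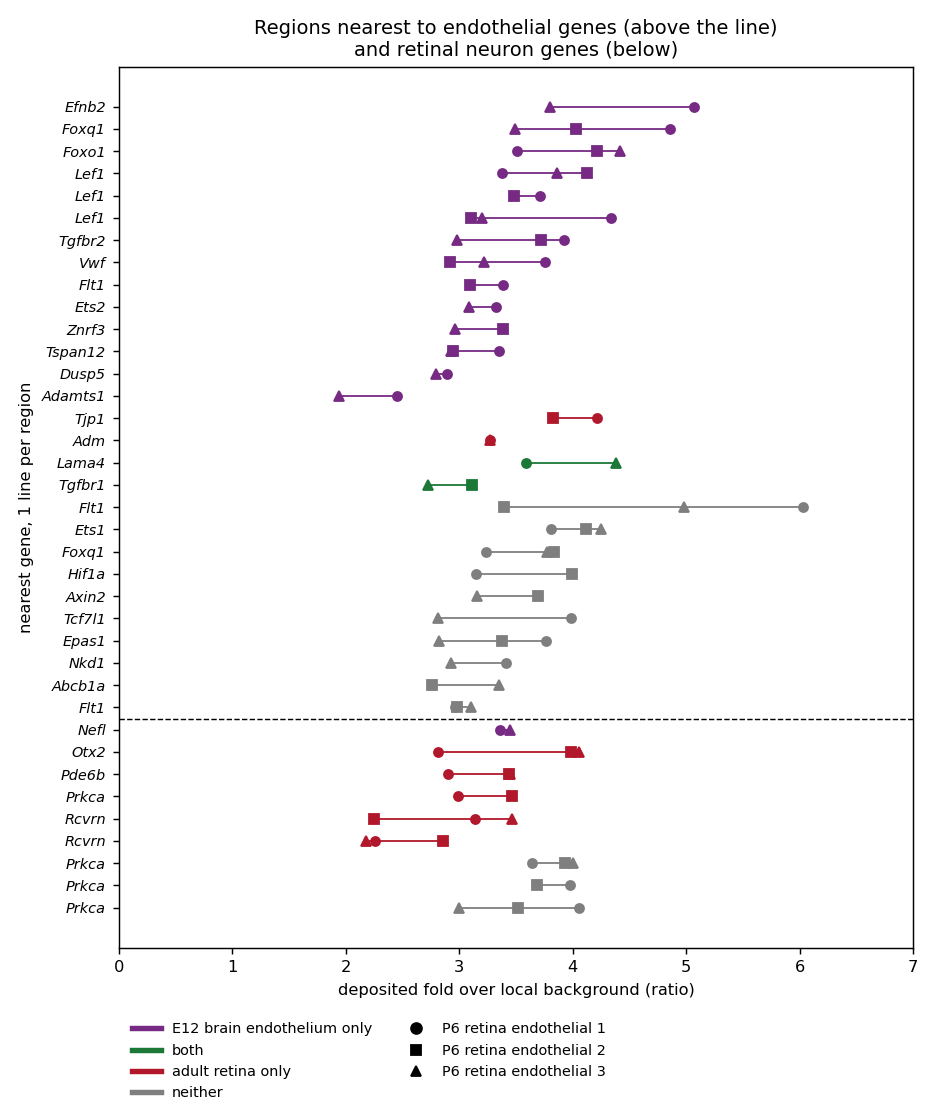
Deposited fold (x axis, a ratio) of retina-only regions nearest to a listed gene (y axis), in each P6 retina endothelial library (marker shape) and coloured by where else the region was open. Above the dashed line are regions of endothelial lists, more of them open at E12 only than in adult retina only, and below it those of neuronal lists, more of them open in adult retina only.

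At gene starts the rule left few regions. Those of 4 protein-coding genes held the start itself. Hoxa13, a posterior homeobox gene (chr6:52260785-52261036), had 2.74 and 3.05 in P6 retina endothelial 2 and 3 and 3.43, 3.41 and 3.68 in E12 brain endothelium, and had peaks in 3 E12 heart and 3 E12 trunk libraries too. Cyp4f39, whose sequence is printed above, had 4.14, 3.39 and 3.54 at P6 and 3.14, 2.98 and 3.32 at E12. Npffr1, a neuropeptide receptor gene, had 3.16 and 2.86 in endothelial 2 and 3. Cd300lb had 3.63 and 3.17 in endothelial 1 and 2, and 1 library elsewhere had a peak there. None of these had an adult retina peak.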

How the data were processed

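ATAC-seq peak lists of 66 libraries were used. Per the submitters' processing notes, the authors used Bowtie2, SAMtools 1.13, Picard and MACS2 on build mm10. Per the file headers, the authors called broad peaks with MACS2 2.1.2 in each library separately, without a control, shifting tags by -100 bp and extending them to 200 bp. The q-value of 0.05 was set for strong peaks, and the broad lists also held weaker ones. The region in Abcb1a, for example, had a −log10 q of 1.26 in P6 retina endothelial 2, a q-value above 0.05. The deposited columns used were the pileup signal, the fold over local background (a ratio) and −log10 of the q-value. Broad lists miss weak openness below the threshold, so absence means that no peak was called. RNA-seq and single-cell files were not used here.

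Peaks were merged where they shared at least 1 bp, and presence meant an overlap of at least 1 bp, computed with Python 3.11.15, numpy 2.4.6 and pandas 2.3.3. The share of regions with a peak was computed per library and compared between groups with exact two-sided permutation tests over libraries (scipy 1.17.1), with p-values adjusted over 5 tests by the Benjamini-Hochberg method. On simulated lists the merging and the rule recovered 200 of 200 planted regions and 0 others. Nearest genes came from RefSeq (GRCm38.p6), by distance to the gene body. Named regions were the 10 strongest with a peak in all 3 libraries, those nearest to a listed gene, those at a gene start, and the 5 genes with most regions. The members, lists and rules were chosen with earlier results of these data known. Groups and replicate numbers came from the sample titles. Replicate numbers were not taken as pairs: over 15 pairs of organs, deviations of same-numbered adult endothelial libraries correlated at -0.13 to 0.07, and this was checked in no other libraries. Alternatives changed the number of libraries, the q-value, the overlap, the number of peaks and the libraries used. Those on P6 retina input 2 and heart endothelial E12 3, and the marker check, were chosen after seeing the data. Regions at some listed genes are counted but not reported here singly.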

Additional observations from a re-analysis of the deposited data

Results flagged for a closer look

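Heart endothelial E12 3 had a peak at 0.577% of the retina-only regions (95% Wilson interval 0.322 to 1.03%, for counting error only), while the other 3 libraries of its group lay between 11.2 and 13.4%. The gap to its nearest neighbour was 0.832 of the group's range. It was also the library with the fewest tags (10.1 M, mega) of the 66. Among 2 groups of 4 libraries 1 was singled out in this way. Chance singles out about 1 in 20 groups.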

How the results depend on the processing

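The rule kept 622 regions with a peak in all 3 libraries, 1258 with a −log10 q of at least 3 (617 of them overlapping the main regions), 666 with P6 lists cut to equal numbers of top peaks (2 overlapping), and 929 to 3826 with 1 P6 retina library left out. The number was within 1.5 times under the other 4 alternatives, without the library labelled P6 retina input 2 among them. In the comparisons below, the 1908 regions were kept when only the lists compared were cut to equal numbers of top peaks, and were chosen anew for a peak in all 3 libraries or a −log10 q of at least 3. Adult retina against other adult endothelium kept its direction throughout, at 13.8 to 19.9 points with 1 retina library left out (exact permutation p = 0.182) and 4.91 points for the 1908 regions with adult lists cut to equal numbers. Adult brain against peripheral endothelium reversed to -0.0804 points with a peak in all 3 libraries and to -4.33 with the share over other regions subtracted, ranged from -0.00655 to 0.308 with 1 library left out, and was 0.467 with a −log10 q of at least 3 (exact permutation p = 0.0444). P6 brain input against other inputs was -1.56 points with these inputs cut to equal numbers (exact permutation p = 0.00699). E12 brain against heart and trunk endothelium was 6.72 points with the share over other regions subtracted and 4.09 for the 1908 regions with E12 lists cut to equal numbers. Adult retina endothelium against input ran from -19.5 to 3.20 points with 1 library left out. The cause of these changes was not tested, except that fewer libraries allow only larger p-values.

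With the replicate number as a block, labels were permuted within numbers only. Differences then stayed at 16.8 points for adult retina (exact permutation p = 0.0556), -4.43 for P6 brain input (p = 0.0313) and 13.98 for E12 brain (p = 0.0741), and no other call changed. Depth limits every absence, since a region without a peak may be open below the threshold of its list.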
